A study of Mus musculus with 75 samples.

Results

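The genes described here are 10 genes of fibroblast growth factor (FGF) signalling, taken as a fixed list of names from the 55291 gene rows of a table of read counts over 75 single cochlear cells of the mouse. They are 3 FGF receptors (Fgfr1, Fgfr2, Fgfr3), the receptor-like Fgfrl1, the target genes Etv4 and Etv5, and the feedback inhibitors Spry1, Spry2, Spry4 and Dusp6. Of the 10, 7 passed a filter on low counts that 11443 of all genes passed. Fgfr2, Spry4 and Etv4 did not pass and were each detected in at most 3 cells of any group.

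FGF receptors are tyrosine kinases at the cell surface that pass the signal of secreted FGFs to the RAS and ERK cascade. The ETS transcription factors Etv4 and Etv5 are switched on by that cascade, and the Sprouty proteins and the ERK phosphatase Dusp6 are switched on by it too and damp it, so that these genes are widely used as a readout of FGF activity. In the organ of Corti, FGF signalling through Fgfr3 is known for its part in the formation of pillar cells (PCs), and Fgfr3 is widely used to mark PCs and Deiters' cells (DCs).

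The study asked how far supporting cells (SCs) of the adult cochlea turn into outer hair cells (OHCs) when Atoh1 and Ikzf2 are induced in them. All mice are labelled as strain C57BL/6. Cells were picked by hand for Tdtomato and each made 1 full-length library with a Smart-Seq kit. The 17 WT_P30 OHCs came at P30 from Slc26a5 CreER/+; Ai9/+ mice given tamoxifen at P20 and P21, in which Cre is driven from the locus of Prestin, the motor protein of OHCs. The 16 WT_P60 SCs came at P60 from Fgfr3-iCreER+; Ai9/+ mice given tamoxifen at P30 and P31, and are primarily PCs and DCs. The other 42 cells came at P60 from Fgfr3-Atoh1-Ikzf2-DTR mice, which carry Fgfr3-iCreER+ and Slc26a5 DTR/+ beside 2 transgenes that Cre switches on, Rosa26 CAG-LSL-Ikzf2/+ and CAG-LSL-Atoh1+. These mice had tamoxifen at P30 and P31 and, at P36, diphtheria toxin, which kills the endogenous OHCs through the receptor placed in the Slc26a5 locus. The study sorted the 42 cells by Myo7a and Prestin into 11 OHC-like cells (both present), 16 nascent HCs (Myo7a alone) and 15 SCs failing to become HCs (neither).

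Features of this design bear on every value below. WT_P60 SCs and the 3 induced groups were all picked through Fgfr3-iCreER, so that a cell without Fgfr3 activity at the time of tamoxifen could not enter them, and WT_P30 OHCs were picked through another gene. Age also coincided with group, since only WT_P30 OHCs were taken at P30. Library series coincided with both wild-type groups, since all WT_P30 OHCs bore library numbers of 1 series and all WT_P60 SCs those of another. Age and series cannot be told apart from cell type there. No induced cell bore a library number of either wild-type series. The induced groups differed from WT_P60 SCs also by library series, the DTR allele, diphtheria toxin and the death of OHCs. These cannot be told apart from the induction of Atoh1 and Ikzf2. The labels name no animals, so each group counts as 1 sample: no test was made, a ± is the standard deviation (SD) between cells, and differences are described by levels, ranges and shares of cells. Total counts per cell lay between 4264780 and 22934062, with a median of 7384627.

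Levels are read counts scaled to a common total (CPM) on library sizes scaled by the trimmed mean of M values (TMM). Detection in a cell was set at 1 CPM or more before scaling, and a gene was taken as higher or lower between groups where the means differed by over 4-fold, the size of change that the study used. The wild-type cell types carried their markers. The summed level of 7 OHC genes was between 12459 and 45489 CPM in WT_P30 OHCs and at most 0.311 CPM in WT_P60 SCs. In WT_P60 SCs, 6 SC genes summed to between 7678 and 19975 CPM. The induced groups overlapped in both sums. The OHC genes summed to 40.5 to 1536 CPM in SCs failing to become HCs and 389 to 8092 CPM in nascent HCs. In OHC-like cells they summed to 1106 to 7909 CPM. The SC genes summed to 211 to 26939, 468 to 7150 and 771 to 10420 CPM in the same order. WT_P30 OHCs held between 1613 and 5466 CPM of these SC genes in 17 of 17 cells, nearly all of it S100a1, with Gjb2 detected in 1 cell, and Sox2, Sox10 and Gjb6 had no read there. Of 2 inner hair cell genes, Slc17a8 and Otof, at least 1 was detected in 15 of 17 WT_P30 OHCs. Their sum had a median of 435 CPM and reached 1401 CPM there, against at most 41.9 CPM in any other group.

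The promoters of 3 members are shown because these genes include the driver of Cre in the SCs (Fgfr3), a target whose wild-type ranges did not overlap (Etv5) and, of the 7 members searched, the only one with a match to the ETS motif (Fgfrl1). Each line gives the 250 bases before a RefSeq start in GRCm38.p6, 5′ to 3′ on the strand of the gene, with the match to a searched motif in capitals. For Fgfr3 and Etv5 the start with a match is shown, and each had another start that held no match.

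Fgfr3, chr5:33721474-33721723, plus strand: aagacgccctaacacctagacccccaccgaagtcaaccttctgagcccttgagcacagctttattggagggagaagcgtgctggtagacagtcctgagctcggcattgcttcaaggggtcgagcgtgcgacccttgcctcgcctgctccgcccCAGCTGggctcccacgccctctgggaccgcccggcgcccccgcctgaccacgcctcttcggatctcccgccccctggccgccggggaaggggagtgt
Etv5, chr16:22439571-22439820, minus strand: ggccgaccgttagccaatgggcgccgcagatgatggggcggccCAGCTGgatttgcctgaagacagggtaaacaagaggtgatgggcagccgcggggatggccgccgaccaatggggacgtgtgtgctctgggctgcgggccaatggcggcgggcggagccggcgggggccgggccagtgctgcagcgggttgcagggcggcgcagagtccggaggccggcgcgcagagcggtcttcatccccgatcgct
Fgfrl1, chr5:108693979-108694228, plus strand: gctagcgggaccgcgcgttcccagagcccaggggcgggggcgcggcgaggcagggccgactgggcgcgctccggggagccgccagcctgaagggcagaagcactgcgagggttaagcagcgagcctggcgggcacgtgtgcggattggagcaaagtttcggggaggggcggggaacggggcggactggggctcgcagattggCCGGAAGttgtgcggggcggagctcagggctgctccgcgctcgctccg

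The motifs searched on both strands were CCGGAAG, bound by ETS factors, CAGCTG, an E-box of the kind bound by bHLH factors such as Atoh1, and TGANTCA, bound by AP-1. The capitals mark CAGCTG in Fgfr3 and Etv5 and CCGGAAG in Fgfrl1, and no match overlapped another one. The search covered 7 members with 9 RefSeq starts, of which 2 held CAGCTG, 1 held CCGGAAG and 0 held TGANTCA. Fgfr1, Etv4 and Spry4 were not among these members, and Spry4 was absent because chromosome 18 was left out of the search of members. Among all 32851 promoters of this length, 13.0% held CAGCTG, 6.91% held CCGGAAG and 6.75% held TGANTCA. A match is a stretch of letters and was not tested as a binding site.

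Fgfr3, the receptor that drives the Cre, lies on chromosome 5 (33721674 to 33737068, GRCm38, plus strand) and was the member with the highest mean level per length in WT_P60 SCs, 282 TPM (a level that divides by exon length). It was detected in 16 of 16 WT_P60 SCs, from 279 to 2020 CPM with a median of 688 CPM and a mean of 765 ± 432 CPM. WT_P30 OHCs held it in 3 of 17 cells (17.6%, Clopper-Pearson 95% interval 3.80% to 43.4%), with a median of 0 and a highest value of 164 CPM. No WT_P30 OHC reached the lowest WT_P60 SC, and the mean was 51.8-fold lower, or 141-fold without WT_P30 OHC 13. Such intervals cover counting of cells only.

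The induced cells still held Fgfr3 at a level between those of the wild-type groups. OHC-like cells had it in 11 of 11 cells, from 160 to 636 CPM with a median of 297 CPM and a mean of 315 ± 146 CPM. In nascent HCs it was in 16 of 16 cells, between 23.8 and 835 CPM with a median of 310 CPM and a mean of 324 ± 245 CPM. SCs failing to become HCs held it in 13 of 15 cells, up to 1418 CPM with a median of 263 CPM and a mean of 364 ± 387 CPM. The 3 induced means were within their SDs of each other. Each was between 41.1% and 47.7% of that of WT_P60 SCs, short of the 4-fold size. The gap to WT_P60 SCs was within the larger SD for SCs failing to become HCs, the nearest in order. It was beyond that SD for nascent HCs and OHC-like cells.

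Against WT_P30 OHCs the difference was large. The mean of Fgfr3 was 21.3-fold higher in OHC-like cells, and in 99.5% of pairs of 1 cell from each group the OHC-like cell was the higher. The difference between these means exceeded the larger SD, and Fgfr3 and, between WT_P60 SCs and the next group, Etv5 were the only members for which any neighbouring groups in the order of levels stood that far apart. A single WT_P30 OHC, cell 13, carried the 164 CPM of Fgfr3. It was also the only WT_P30 OHC with a fibroblast marker, and without it the fold became 58.0. Exons of Fgfr3 share 998 bases with G630022F23Rik on the opposite strand, and whether counting used strand is not given in the sources used here, nor is whether transcripts of the Fgfr3-iCreER construct add to the count.

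**Figure D1:**
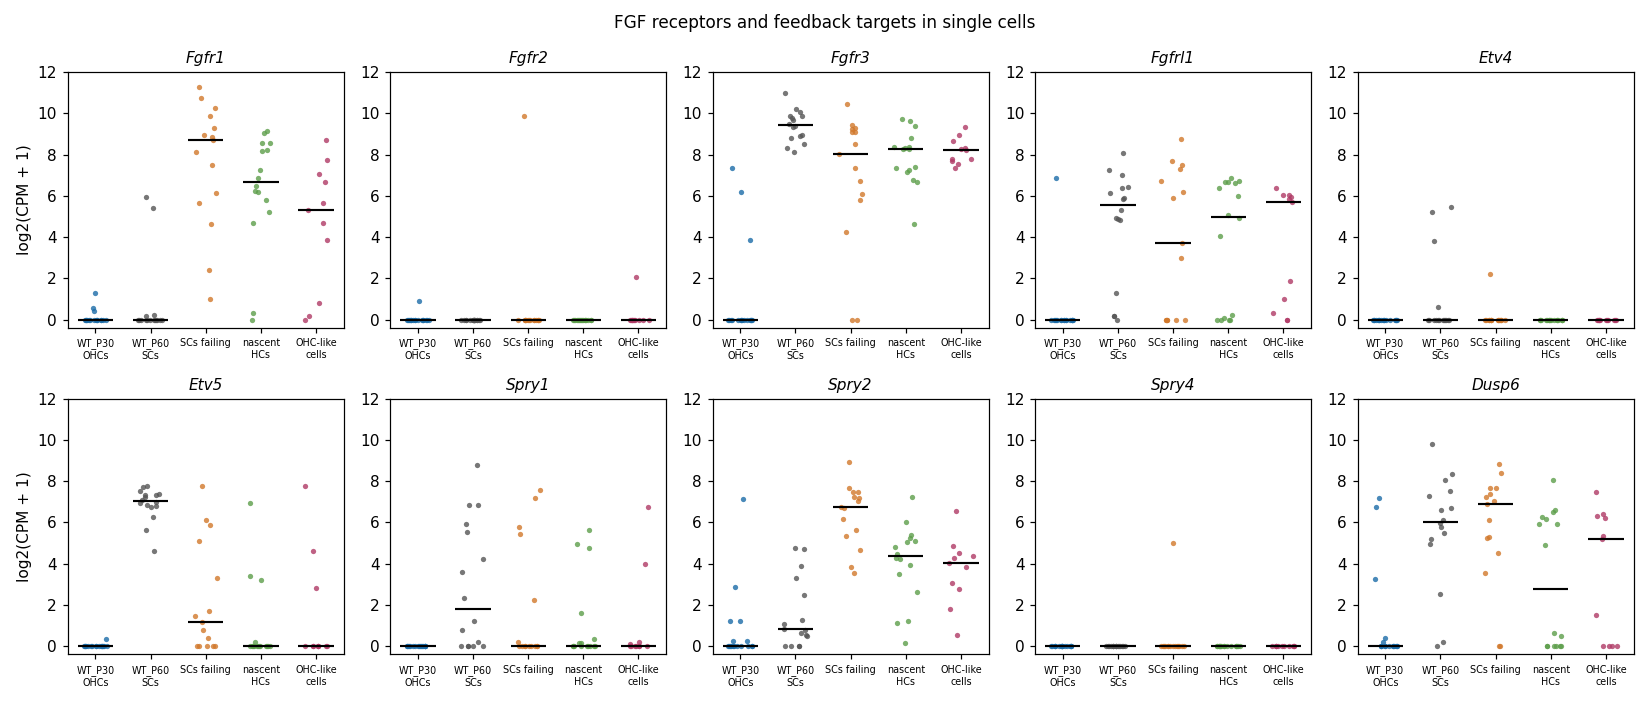
Level of each of the 10 genes as log2(CPM + 1) in every cell (points, spread sideways at random), by group on the horizontal axis, with the median of the group as a black bar. Fgfr3 and Etv5 separate WT_P60 SCs from WT_P30 OHCs without overlap, and Fgfr1 and Spry2 are high in SCs failing to become HCs, where 15 of 15 cells held each.

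Fgfr1, a receptor of broad use in development, lies on chromosome 8 (25513654 to 25575718, plus strand) and showed another order. In WT_P60 SCs it was detected in 2 of 16 cells, at 60.4 and 42.2 CPM, with a median of 0 and a mean of 6.43 ± 17.8 CPM. In WT_P30 OHCs it was detected in 1 of 17 cells and never passed 1.47 CPM. Both wild-type groups therefore lacked it in nearly all cells. The mean was 47.8-fold lower in WT_P30 OHCs, a fold that was 125 without WT_P30 OHC 7, 21.0 without WT_P60 SC 6 and 30.1 without WT_P60 SC 9.

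All 3 induced groups held Fgfr1 in most cells. It was in 15 of 15 SCs failing to become HCs (95% interval 78.2% to 100%), from 1.02 to 2493 CPM with a median of 423 CPM and a mean of 602 ± 725 CPM. In nascent HCs it was in 14 of 16 cells, up to 562 CPM with a median of 102 CPM and a mean of 191 ± 189 CPM. In OHC-like cells it was in 8 of 11 cells, up to 412 CPM with a median of 39.1 CPM and a mean of 89.2 ± 126 CPM. The order of the means ran from SCs failing to become HCs through nascent HCs to OHC-like cells, and each step was smaller than the larger SD of the neighbours.

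Over WT_P60 SCs the mean of Fgfr1 was 93.6-fold higher in SCs failing to become HCs, 29.7-fold higher in nascent HCs and 13.9-fold higher in OHC-like cells. The induced cell was the higher in 97.1%, 93.4% and 86.9% of cell pairs, respectively. The size of these folds rested on the 2 WT_P60 SCs with Fgfr1: without cell 6 they became 212, 67.5 and 31.5, and without cell 9 they became 149, 47.3 and 22.0. Without OHC-like cell 1, which held 412 CPM, the last became 8.85. Exons of Fgfr1 share 164 bases with Gm16159 on the opposite strand.

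OHC-like cells held 6.75-fold less Fgfr1 than SCs failing to become HCs, and 20.6% of pairs had the OHC-like cell higher. Without OHC-like cell 1 the fold was 10.6. Most cells of these groups came from different library series. Series C held 10 SCs failing to become HCs without OHC-like cells, and series B and D held 5 and 3 OHC-like cells without SCs failing. In the series that held both groups, the mean of Fgfr1 was 412 CPM in 1 OHC-like cell against 1076 CPM in 4 SCs failing to become HCs in series A, and 12.3 CPM in 2 cells against 280 CPM in 1 cell in series E, so that the direction was the same in both. Against nascent HCs the mean was 2.14-fold lower, or 3.36-fold without OHC-like cell 1. The series did not all go one way: in series A that cell, the 1 OHC-like cell of the series, was above the nascent HC (412 against 154 CPM), and in series B, D and E the means of OHC-like cells were lower (96.3 against 105, 21.0 against 169 and 12.3 against 328 CPM).

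Per length, the balance of the receptors differed between groups. In TPM, the median of Fgfr3 was 240 and that of Fgfr1 was 0 in WT_P60 SCs, and Fgfr1 was above Fgfr3 in 0 of 16 cells. In SCs failing to become HCs the medians were 87.7 TPM for Fgfr3 and 81.6 TPM for Fgfr1, and Fgfr1 was the higher in 7 of 15 cells. The medians were 84.1 and 23.0 TPM in nascent HCs and 68.5 and 5.92 TPM in OHC-like cells, where Fgfr1 was above Fgfr3 in 4 of 16 and 1 of 11 cells. Both receptors were detected together in 13 of 15 SCs failing to become HCs, 14 of 16 nascent HCs, 8 of 11 OHC-like cells, 2 of 16 WT_P60 SCs and 0 of 17 WT_P30 OHCs.

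**Figure D2:**
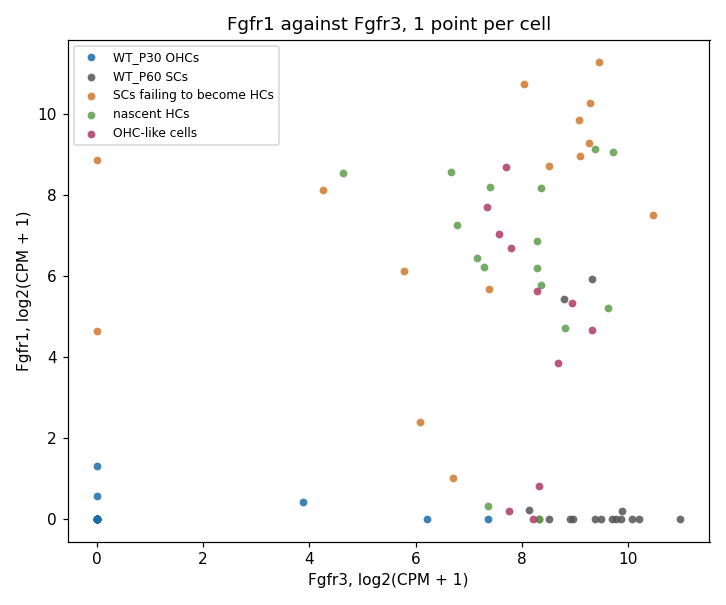
Fgfr1 against Fgfr3 in each of the 75 cells, both as log2(CPM + 1), coloured by group. WT_P60 SCs lie along the bottom at high Fgfr3, with 2 of 16 cells at 42.2 CPM of Fgfr1 or above, most WT_P30 OHCs sit at the origin, and most induced cells hold both receptors.

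Fgfr2 was in effect a gene of 1 cell. Cell 6 of the SCs failing to become HCs held it at 953 CPM, and that cell held no read of Fgfr3. An OHC-like cell held 3.12 CPM and a WT_P30 OHC 0.859 CPM, and all other cells had no count. In the 16 WT_P60 SCs the summed count was 0, as it was in the 16 nascent HCs, which allows a share of cells of up to 20.6% in each. No fold is given for a gene in a single cell of a group.

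Fgfrl1 encodes a receptor-like protein that binds FGFs and lacks the kinase domain. It was in 13 of 16 WT_P60 SCs, up to 267 CPM with a median of 47.6 CPM and a mean of 63.9 ± 70.5 CPM, and in 1 of 17 WT_P30 OHCs, at 115 CPM. The mean was 9.45-fold lower in WT_P30 OHCs, and without that 1 cell (cell 8) it was at least 2279-fold lower. The induced groups held Fgfrl1 at means from 35.1 ± 33.8 CPM in OHC-like cells to 82.4 ± 122 CPM in SCs failing to become HCs, detected in 7 of 11 and 9 of 15 cells, with nascent HCs at 46.2 ± 46.5 CPM in 10 of 16. No neighbouring groups in this order differed beyond their spread. OHC-like cells exceeded WT_P30 OHCs by 5.19-fold, and in 85.6% of pairs. Without WT_P30 OHC 8 that fold was at least 1252, and without the cells that carried a fibroblast marker (described with the markers) it was 3.64, under the 4-fold size.

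The targets separated the groups in another way. Etv5, an ETS factor downstream of ERK, lies on chromosome 16 (22381309 to 22439719, minus strand) and was in 16 of 16 WT_P60 SCs, from 23.3 to 215 CPM with a median of 131 CPM and a mean of 131 ± 52.8 CPM. In WT_P30 OHCs the summed count was 2, in 1 cell. The mean of WT_P60 SCs was 8507-fold that of WT_P30 OHCs, a ratio on which those 2 reads set a counting interval of 2064 to 61574. The interval covers counting error only and takes reads, which can be copies of 1 molecule, as independent, and without that cell (WT_P30 OHC 8) the fold was at least 4683. Every WT_P30 OHC was below every WT_P60 SC, which held for 2 of the 7 members (Fgfr3 and Etv5) and for 1.96% of all 11443 genes.

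In the induced cells Etv5 was low or undetected in most cells. OHC-like cells held it in 3 of 11 cells, at 23.8, 6.10 and 216 CPM, with a mean of 22.4 ± 64.7 CPM. Nascent HCs held it in 3 of 16 cells with a highest value of 122 CPM and a mean of 8.72 ± 30.3 CPM. SCs failing to become HCs held it in 8 of 15 cells, up to 214 CPM, with a median of 1.22 CPM and a mean of 25.9 ± 56.6 CPM. The means were 5.87-fold, 15.1-fold and 5.08-fold lower than in WT_P60 SCs, respectively, and the WT_P60 SC was the higher cell in 90.3%, 97.7% and 91.7% of pairs. Without the highest cell of the induced group (OHC-like cell 11, nascent HC 2 or SC failing 2) the folds became 43.9, 111 and 10.5. Without cells that carried a fibroblast marker, the fold for SCs failing to become HCs was 3.29, under the 4-fold size (38.4 against 126 CPM).

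Etv4, a close relative of Etv5, was detected in 3 of 16 WT_P60 SCs, at 42.4, 36.7 and 13.0 CPM, and in 1 of 15 SCs failing to become HCs, at 3.57 CPM. In WT_P30 OHCs, nascent HCs and OHC-like cells its summed count was 0. The shares that a count of 0 cells allows were up to 19.5%, 20.6% and 28.5%, so that a share like that of WT_P60 SCs (18.8%) was not excluded at this number of cells.

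Among the Sprouty genes, which encode inhibitors of receptor tyrosine kinase signalling, Spry2 was higher and Spry1 lower in nascent HCs than in WT_P60 SCs. Spry2, on chromosome 14 (105891947 to 105896819, minus strand), was in 15 of 15 SCs failing to become HCs, from 10.8 to 486 CPM with a median of 108 CPM and a mean of 126 ± 118 CPM. In WT_P60 SCs it was in 7 of 16 cells and never above 26.3 CPM, with a median of 0.75 CPM and a mean of 5.26 ± 8.84 CPM. The mean was 23.9-fold higher in SCs failing to become HCs, and in 96.7% of pairs the induced cell was the higher.

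Nascent HCs held Spry2 in 15 of 16 cells at a mean of 29.4 ± 35.8 CPM, and OHC-like cells in 10 of 11 at a mean of 20.5 ± 25.7 CPM. These means were 5.60-fold and 3.90-fold above WT_P60 SCs, so that the second did not reach the 4-fold size, but did without any 1 of 10 cells, among them OHC-like cells 3 and 4. Without OHC-like cell 1, at 93.6 CPM, it was 2.52. OHC-like cells held 6.13-fold less Spry2 than SCs failing to become HCs, or 9.51-fold less without OHC-like cell 1, and were lower in series A (93.6 against 201 CPM) and in series E (12.8 against 47.8 CPM). In WT_P30 OHCs Spry2 was detected in 4 of 17 cells, 1 of which (cell 5) held 139 CPM and the others at most 6.23 CPM. That cell set the mean of 8.72 ± 33.6 CPM, which lay 1.66-fold above that of WT_P60 SCs with it and 9.16-fold below without it. OHC-like cells exceeded WT_P30 OHCs by 2.35-fold with that cell and by 35.8-fold without it.

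Spry1, on chromosome 3 (37639947 to 37644598, plus strand), was in 9 of 16 WT_P60 SCs, up to 440 CPM with a median of 2.70 CPM and a mean of 50.4 ± 111 CPM. WT_P30 OHCs had no read of it in 17 cells. Against the floor of 3 reads over the group the mean was at least 1925-fold lower there, and at least 934-fold lower without WT_P60 SC 14, the highest. The induced groups held Spry1 in 5 of 15 SCs failing to become HCs, 4 of 16 nascent HCs and 2 of 11 OHC-like cells, at means of 28.9 ± 58.8, 6.66 ± 14.5 and 11.1 ± 32.3 CPM. Nascent HCs were 7.57-fold and OHC-like cells 4.53-fold below WT_P60 SCs, and without WT_P60 SC 14 both passed under the 4-fold size, at 3.67 and 2.20. Without nascent HC 13 the first fold was 12.9, and without OHC-like cell 2 the second was 34.0. Exons of Spry1 share 710 bases with Gm42922 on the opposite strand. Spry4 had reads in 1 cell of all 75, an SC failing to become HCs (cell 15), at 30.9 CPM.

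Dusp6, the phosphatase that removes the activating phosphates from ERK, lies on chromosome 10 (99263231 to 99267489, plus strand). It was in 14 of 16 WT_P60 SCs, up to 896 CPM with a median of 64.3 CPM and a mean of 145 ± 221 CPM. SCs failing to become HCs held it in 13 of 15 cells, up to 459 CPM with a median of 119 CPM and a mean of 129 ± 132 CPM, within the spread of WT_P60 SCs. Nascent HCs (8 of 16 cells) and OHC-like cells (7 of 11 cells) had means of 46.6 ± 68.4 and 44.5 ± 55.8 CPM, 3.11-fold and 3.26-fold below WT_P60 SCs. Both passed the 4-fold size when 1 induced cell was left out, at 4.49 without nascent HC 2 and 4.66 without OHC-like cell 11. Without WT_P60 SC 8, the highest, they were 2.03 and 2.13.

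WT_P30 OHCs held Dusp6 in 3 of 17 cells at a mean of 15.2 ± 41.8 CPM, which was 9.55-fold below WT_P60 SCs, and 6.25-fold below without WT_P60 SC 8. Of these cells, cell 1 held 144 CPM and cell 14 held 105 CPM, and without them singly the fold was 20.4 and 15.1. OHC-like cells exceeded WT_P30 OHCs by 2.93-fold, and by 6.25-fold or 4.65-fold without those cells singly. Within the order of group means no neighbours differed beyond their spread for Dusp6, Spry1 or Spry2.

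**Figure D3:**
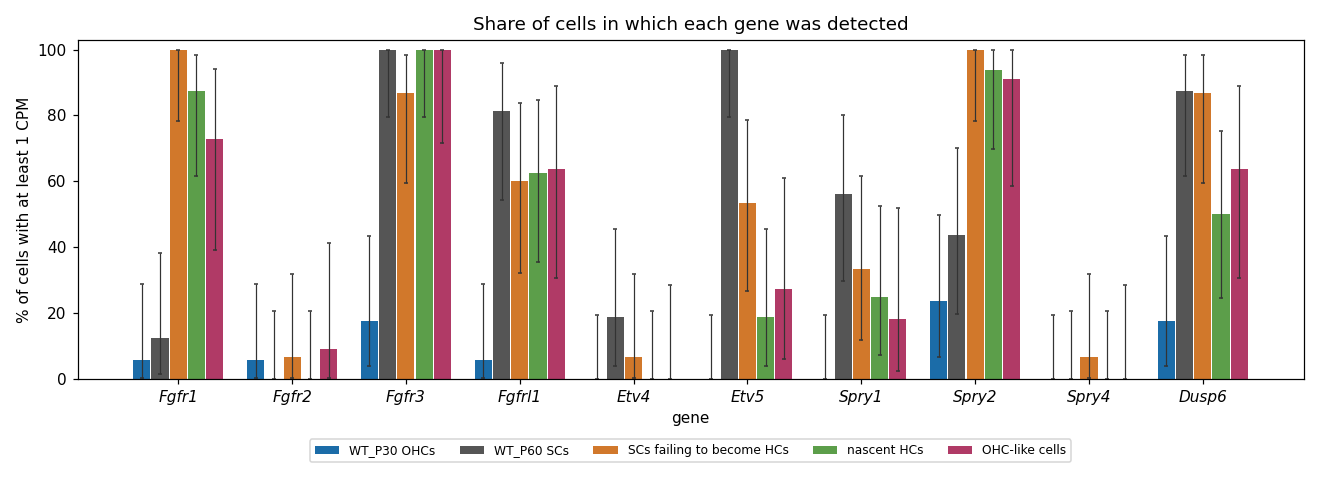
Percent of cells in each group with at least 1 CPM of each of the 10 genes (bars from 0), with Clopper-Pearson 95% intervals that cover counting of cells only. Fgfr1 goes from 2 of 16 WT_P60 SCs to 15 of 15 SCs failing to become HCs, and Etv5 from 16 of 16 WT_P60 SCs to 3 of 11 OHC-like cells.

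Counted over the 7 genes that passed the filter, the wild-type comparison was one-sided. In WT_P30 OHCs 6 of 7 (Fgfr1, Fgfr3, Fgfrl1, Etv5, Spry1 and Dusp6) were lower than in WT_P60 SCs by over 4-fold, beside 22.5% of all genes tested, and 0 were higher, beside 13.9%. The place of Fgfr1 among them rested on WT_P60 SCs 6 and 9, which were left out only singly. No other WT_P60 SC held over 0.156 CPM of it, and WT_P30 OHC 7 held 1.47 CPM. The median log2 fold of the 7 was -5.58, and that of all genes was -0.20. A gene passes this filter where enough cells, counted over all groups together, hold it. A member held mainly in 1 group could pass and then had to differ from a group without it. WT_P30 OHCs held 0.765 ± 0.903 of the 10 genes per cell and WT_P60 SCs 5 ± 0.894, with no overlap: 0 to 3 against 4 to 7. The number of all genes detected per cell did not overlap between these groups either, at 3630 to 5431 against 5542 to 7743.

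Against WT_P60 SCs the induced groups had members on both sides. In OHC-like cells 1 of 7 was higher (Fgfr1, beside 18.8% of all genes) and 2 were lower (Etv5 and Spry1, beside 10.7%). In nascent HCs 2 were higher (Fgfr1 and Spry2, beside 18.0%) and 2 were lower (Etv5 and Spry1, beside 8.87%). In SCs failing to become HCs 2 were higher (Fgfr1 and Spry2, beside 15.8%) and 1 was lower (Etv5, beside 7.71%), which became 0 without the fibroblast-marked cells. These 4 comparisons share the WT_P60 SCs as their reference. The median log2 folds of the 7 were -1.28, -1.24 and -0.17, beside 0.33, 0.34 and 0.26 over all genes, so that the typical gene stood somewhat above 0 in each.

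Between OHC-like cells and WT_P30 OHCs, 5 of 7 were higher in OHC-like cells (Fgfr1, Fgfr3, Fgfrl1, Etv5 and Spry1), beside 25.7% of all genes, and 0 were lower, beside 7.98%. Without the fibroblast-marked cells 2 were higher (Fgfr1 and Fgfr3), since Fgfrl1 fell under the 4-fold size and Etv5 and Spry1 were at or near 0 in both groups. The median log2 fold was 4.41 over the 7 and 0.61 over all genes. Fgfr1 had the largest fold that rested on over 3 reads in each group, 663, and it was 1735 without WT_P30 OHC 7 and 423 without OHC-like cell 1. For Etv5 the 3 OHC-like cells with the gene gave a ratio of 1449, with a counting interval of 331 to 9899 from the 2 reads of WT_P30 OHCs, which again covers counting error only. It was 194 without OHC-like cell 11 and at least 798 without WT_P30 OHC 8. Spry1 was at least 425-fold higher, and at least 56.7-fold higher without OHC-like cell 2.

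Among the induced groups the members differed less. OHC-like cells had 2 of 7 members lower than SCs failing to become HCs (Fgfr1 and Spry2, beside 10.1% of all genes) and 0 higher, beside 11.5%. Against nascent HCs 0 were higher, beside 3.70%, and 0 were lower, beside 5.42%. The median log2 folds of the 7 were -1.38 and -0.07, beside 0.06 and -0.01 over all genes. Some of these counts turned on the library series or on 1 cell. Averaged within series A and E, Spry2 was 2.83-fold lower in OHC-like cells than in SCs failing to become HCs, under the 4-fold size, and Fgfrl1 and Spry1 were past it on the lower side. Fgfr3 and Etv5 turned to 4.45-fold and 5.18-fold higher there, from values of OHC-like cells that were lower in series A (208 against 270 CPM of Fgfr3 and 23.8 against 55.8 CPM of Etv5) and higher in series E (466 against 18.1 CPM and 108 against 1.72 CPM), where 1 SC failing to become HCs was measured. Against nascent HCs within series, Etv5 was 5.93-fold higher, and Spry1, 1.67-fold higher over all cells, was 5.28-fold lower.

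Single cells moved the same comparisons. Without OHC-like cell 11, Etv5 and Dusp6 were 8.64-fold and 4.14-fold lower in OHC-like cells than in SCs failing to become HCs, where over all cells they were 1.16-fold and 2.90-fold lower. Without OHC-like cell 2, Spry1 was 19.5-fold lower than in SCs failing to become HCs, from 2.60-fold, and 4.49-fold lower than in nascent HCs. Etv5 was 18.9-fold higher in OHC-like cells than in nascent HCs without nascent HC 2, 2.56-fold higher over all cells and 2.91-fold lower without OHC-like cell 11. Induced cells held 5.40 ± 1.06 of the 10 genes per cell in SCs failing to become HCs, 4.38 ± 1.45 in nascent HCs and 4.45 ± 1.13 in OHC-like cells. Medians of all genes detected per cell were 6977, 8066.5 and 8488 in the same order.

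**Figure D4:**
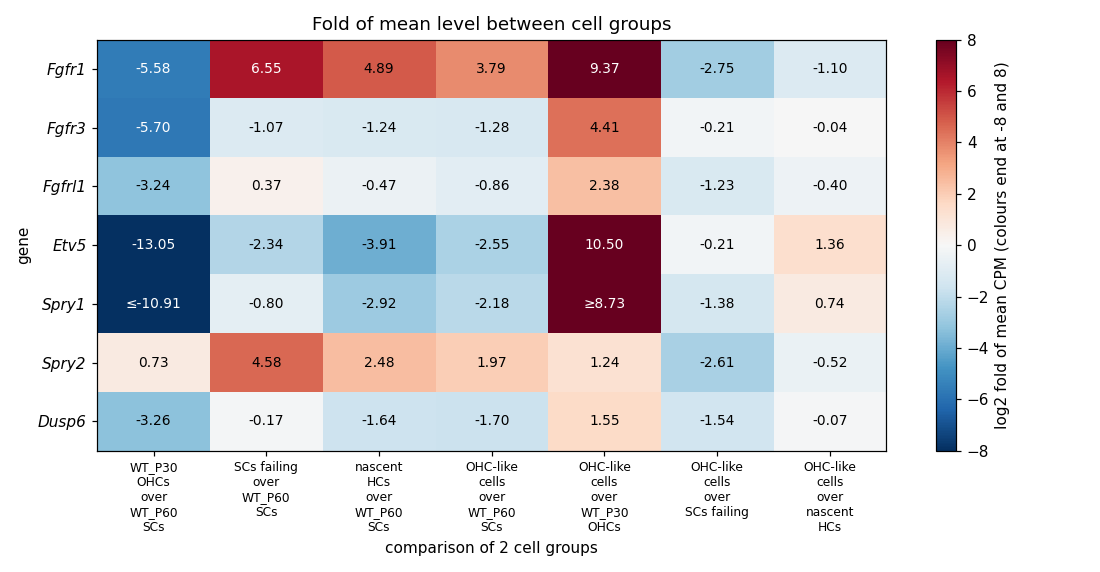
Log2 fold of mean CPM for the 7 genes that passed the filter (rows) in 7 comparisons of 2 groups (columns), red where the first group is higher. A sign of at most or at least marks a fold against a group with no read, computed at a floor of 3 reads. Etv5 spans -13.05 to 10.50 and Fgfr1 -5.58 to 9.37.

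Markers of other cells moved with some of these values. Of 4 fibroblast genes, Col1a1, Col1a2, Dcn and Lum, at least 1 was present in 5 of 15 SCs failing to become HCs, 4 of 11 OHC-like cells, 2 of 16 nascent HCs, 1 of 16 WT_P60 SCs and 1 of 17 WT_P30 OHCs. Their summed level reached 2050 CPM in SCs failing to become HCs, 268 CPM in OHC-like cells and at most 68.0 CPM in the other groups. Col1a2, a defining collagen gene, was detected in 0 cells of any group, and Col1a1 had a mean of at most 4.63 CPM. The OHC-like cells in which Etv5 (cells 1, 2 and 11) and Spry1 (cells 2 and 5) were detected were all among the 4 with a fibroblast marker. Leaving out the 13 marked cells, a choice made after the data were seen, OHC-like cells held no read of Etv5 and a mean of 0.0336 CPM of Spry1, and Fgfr1 kept means of 442 CPM in SCs failing to become HCs, 171 CPM in nascent HCs and 51.4 CPM in OHC-like cells. For Fgfr1, Spry2 and Fgfr3 the directions between induced cells and WT_P60 SCs were the same without the marked cells, and the part of the markers in the values of Etv5 and Spry1 was not tested.

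Of 3 endothelial genes, Pecam1 was found in 9 of 16 WT_P60 SCs at a mean of 79.7 CPM, and the summed level of the 3 reached 301 CPM there and at most 161 CPM elsewhere. Of 3 blood genes, the summed level reached 2348 CPM in 1 OHC-like cell. Of 4 macrophage genes, 1 was detected, in 1 WT_P30 OHC only, where the sum was 38.6 CPM. Mbp, a glial gene, was detected in 9 of 11 OHC-like cells and 11 of 16 nascent HCs at means of 73.2 and 39.3 CPM, and in no wild-type cell. Of 3 neuron genes, at least 1 was detected in 16 of 17 WT_P30 OHCs, 12 of 16 nascent HCs, 9 of 11 OHC-like cells, 5 of 15 SCs failing to become HCs and 4 of 16 WT_P60 SCs. Their summed level had medians of 196, 224, 151, 0.516 and 0 CPM, and lay between 0.655 and 885 CPM in WT_P30 OHCs and reached 877, 473, 1018 and 32.3 CPM in the others. Most of it was Snap25, and Nefl was detected in 0 nascent HCs and 0 OHC-like cells. The part of these markers in the levels of the FGF genes was not tested. An OHC-like cell with few genes detected, cell 4 with 3348, held 492 CPM of Fgfr3 and 39.1 CPM of Fgfr1.

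Within groups the members followed each other only in part. In the 15 SCs failing to become HCs, Spearman's rho of log2(CPM + 1) was 0.56 between Fgfr1 and Fgfr3, 0.43 between Fgfr1 and Spry2, and -0.69 and -0.72 for Dusp6 with Fgfr1 and Fgfr3. In the 11 OHC-like cells rho between Fgfr1 and Fgfr3 was -0.52, and in the 16 nascent HCs it was -0.11. In the 16 WT_P60 SCs Fgfr3 had a rho of 0.51 with Dusp6 and -0.46 with Etv5. These are descriptions over cells that share library series and differ in depth.

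Over all 75 cells, the genes whose pattern was most like that of Fgfr3 were Stmn1, a regulator of microtubules (rho 0.77), Gm11223 (0.75), Tmod1, which caps actin filaments (0.74), Fmn1, a formin (0.73), and Bdh2 (0.73). The members closest to Fgfr3 were Etv5 (0.47) and Fgfrl1 (0.45). Stmn1 had means of 2184 CPM in WT_P60 SCs and 3.67 CPM in WT_P30 OHCs, with 476, 393 and 189 CPM in SCs failing to become HCs, nascent HCs and OHC-like cells. Fmn1 was at 401 CPM in SCs failing to become HCs, above the 235 CPM of WT_P60 SCs.

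Other genes of the pathway were taken from lists of 18 FGF ligands, 4 intracellular FGF homologous factors, 10 other receptors, co-receptors and adaptors, 13 genes of the ERK cascade and 8 further feedback inhibitors and ETS targets, of which Spry3 was not analysed here. Among the ligands 2 passed the filter. Fgf9, a ligand of the developing cochlea, had no read in 16 WT_P60 SCs and was in 11 of 15 SCs failing to become HCs at a mean of 147 ± 234 CPM, in 8 of 16 nascent HCs at 26.0 ± 41.8 CPM and in 8 of 11 OHC-like cells at 35.2 ± 58.7 CPM. Fgf21, an endocrine FGF that is also a gene of the stress response, had no read in any WT_P60 SC or SC failing to become HCs and was in 14 of 16 nascent HCs and 8 of 11 OHC-like cells, at 337 ± 657 and 214 ± 327 CPM. WT_P30 OHCs held Fgf9 in 3 of 17 cells and Fgf21 in 2 of 17.

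Of the intracellular factors, which bind sodium channels and not receptors, only Fgf11 passed the filter. It was in 13 of 16 nascent HCs and 8 of 11 OHC-like cells at 114 ± 97.1 and 97.8 ± 127 CPM, in 4 of 15 SCs failing to become HCs, and below 1 CPM in every wild-type cell. Flrt1, a membrane protein that associates with FGF receptors, was in 15 of 16 nascent HCs and 10 of 11 OHC-like cells at 173 ± 112 and 167 ± 122 CPM, in 4 of 15 SCs failing to become HCs at 11.3 ± 27.2 CPM, and in 1 of 17 WT_P30 OHCs and 0 of 16 WT_P60 SCs. Of the 3 genes of its list that passed, Flrt1 was the 1 higher in each of the 3 induced groups than in WT_P60 SCs, beside 15.8% to 18.8% of all genes, and 0 were lower, beside 7.71% to 10.7%.

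The ERK cascade was measured for all 13 genes. Compared with WT_P60 SCs, 3 were lower and 1 was higher in WT_P30 OHCs, and 2 were lower and 1 was higher in each of the 3 induced groups. Over all genes the shares were 22.5% lower and 13.9% higher in WT_P30 OHCs, and 7.71% to 10.7% lower and 15.8% to 18.8% higher in the induced groups, so that 3 of 13 was near the share of all genes. Map2k1, the ERK kinase MEK1, was at 1447 ± 366 CPM in WT_P60 SCs with a lowest cell of 590 CPM, and its highest cell in any other group was at 550 CPM, an SC failing to become HCs. The share of all genes with such a gap was not counted, and WT_P60 SCs formed a library series of their own. Its means were 236 ± 163 CPM in SCs failing to become HCs, 164 ± 86.9 CPM in nascent HCs, 123 ± 87.8 CPM in OHC-like cells and 61.5 ± 79.4 CPM in WT_P30 OHCs. Ptpn11, the phosphatase SHP2 that carries the receptor signal to RAS, was at 301 ± 120 CPM in WT_P60 SCs and between 37.2 and 61.5 CPM on average in the other 4 groups. Sos1, which loads RAS with GTP, was the gene that was higher: 1.19 ± 4.45 CPM in WT_P60 SCs against 7.26 to 45.1 CPM elsewhere.

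Among the 5 further feedback inhibitors and ETS targets that passed, Etv1, the third member of the ETS subfamily of Etv4 and Etv5, was likewise present in every WT_P60 SC. It was in 16 of 16 WT_P60 SCs at 358 ± 271 CPM, with a lowest cell of 52.2 CPM, and in 6 of 15 SCs failing to become HCs, 2 of 16 nascent HCs, 5 of 11 OHC-like cells and 1 of 17 WT_P30 OHCs, at means of 37.1, 3.76, 31.1 and 14.1 CPM. Dusp5, a nuclear ERK phosphatase, had no read in any wild-type cell and was in 5 of 15 SCs failing to become HCs, 8 of 16 nascent HCs and 4 of 11 OHC-like cells. Its mean of 127 ± 346 CPM in SCs failing to become HCs held 1 cell at 1331 CPM. Of the 5, 1 was higher than in WT_P60 SCs in each induced group, and 2 were lower in OHC-like cells, 3 in nascent HCs and 2 in SCs failing to become HCs. The shares of all genes were 15.8% to 18.8% higher and, in the same order, 10.7%, 8.87% and 7.71% lower.

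**Figure D5:**
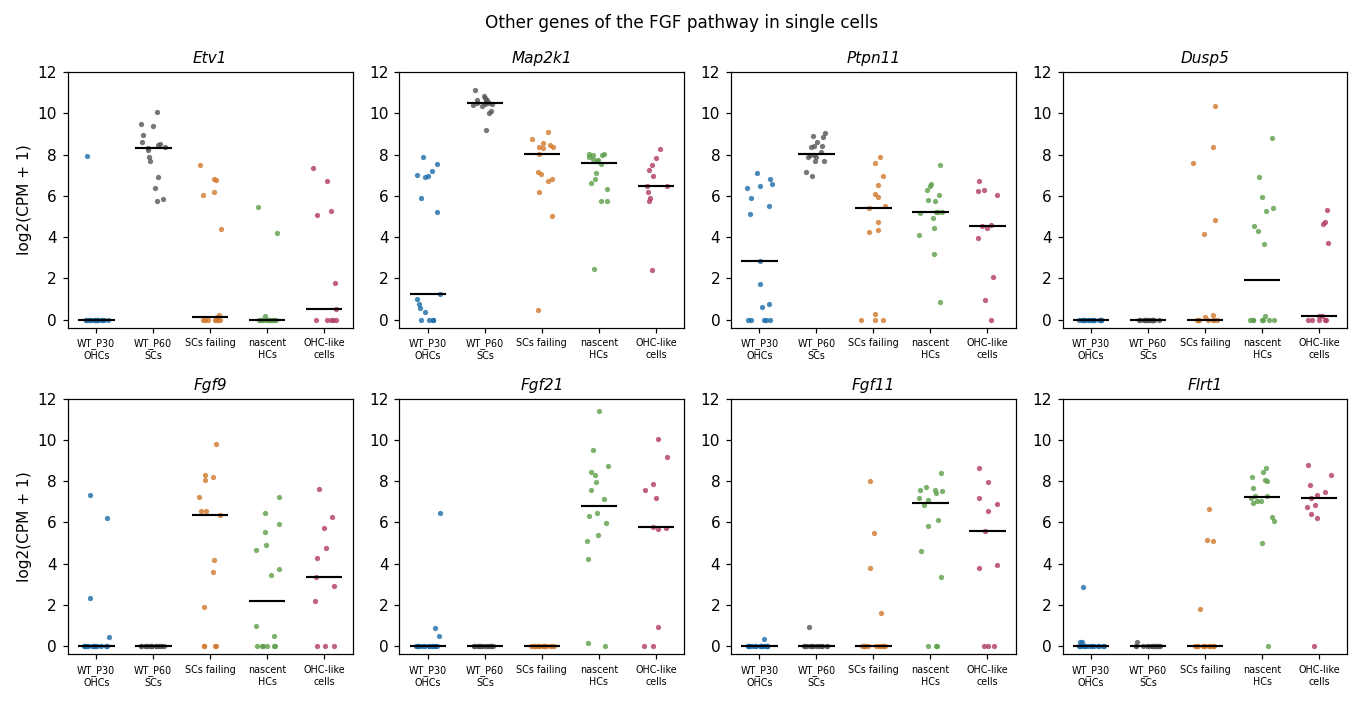
Level of 8 other genes of the pathway as log2(CPM + 1) in every cell (points), by group, with the median as a black bar. Map2k1 is highest in WT_P60 SCs, from 590 CPM up, and Fgf21, Fgf11 and Flrt1 are mainly in nascent HCs and OHC-like cells.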

How the data were processed

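Single-cell libraries were made with a Smart-Seq HT kit. The authors deposited a table of raw read counts, obtained through FastQC 0.11.9, Trimmomatic 0.39, HISAT2 2.1.0 on GRCm38 and HTSeq 0.10.0, and the annotation release and strand setting are not given in the sources used here. StringTie 1.3.5 is also named by the submitters' processing notes. The row of WPRE, a viral element with 0.0254% of counts, was left out. Counts are reads without molecular identifiers, so totals of 4264780 to 22934062 per cell set counting precision only. Groups follow the labels.

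From the counts, edgeR 4.0.16 in R 4.3.3 kept 11443 of 55291 genes (filterByExpr, minimum count 10) and gave TMM library sizes, from which CPM were computed in scipy 1.17.1, pandas 2.3.3 and numpy 2.4.6 under python 3.11.15. Plots used matplotlib 3.10.9. A group without reads was set to a floor of 3 counts over the group. TPM and positions used GENCODE M21 exons. No test was run, since a group is 1 sample. The computation of folds was tested on simulated data with 200 changed genes. Alternatives were other scalings (total count, DESeq2 1.42.0 size factors), pooled counts, the median over cells, thinning, a threshold of 2, no filter, leaving out cells, and comparison within library series. The members, gene lists and rules were chosen with earlier results of these data known. Named are all 10 members, at most 3 genes past the threshold per further list and comparison, and the 5 genes most like Fgfr3.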

Additional observations from a re-analysis of the deposited data

How the results depend on the processing

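No paired analysis was possible because the results come from no test and cell numbers pair no cells, and library series, the only block that the induced groups share, enters through the values within series. Counts of members past the 4-fold size in the 7 comparisons were within 1.5 times under total count scaling, DESeq2 size factors, pooled counts and thinning, as they were without OHC-like cell 4 except that OHC-like cells then had 2 higher against WT_P60 SCs. At a 2-fold size, OHC-like cells had 2 higher and 4 lower than WT_P60 SCs, nascent HCs 4 lower and SCs failing to become HCs 2 lower, while OHC-like cells had 5 lower than SCs failing to become HCs and against nascent HCs 1 higher and 1 lower. By the median over cells, OHC-like cells had 2 higher than WT_P60 SCs and 1 higher than SCs failing to become HCs, which had 2 lower than WT_P60 SCs. With no filter on low counts, OHC-like cells had 2 higher than WT_P60 SCs, 5 lower than SCs failing to become HCs and 1 higher than nascent HCs, while SCs failing to become HCs had 4 higher and 2 lower than WT_P60 SCs. Within library series, OHC-like cells had 2 higher than SCs failing to become HCs (Fgfr3 and Etv5, at 2.15 and 2.37 on the log2 scale) and 1 higher (Etv5, 2.57) and 1 lower (Spry1, -2.40) than nascent HCs. Without cells with a fibroblast marker, OHC-like cells had 2 higher than WT_P30 OHCs, 5 lower than SCs failing to become HCs and 2 lower than nascent HCs, while SCs failing to become HCs had 0 lower than WT_P60 SCs.

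Leaving out each cell in turn gave, against WT_P60 SCs, 1 to 2 members higher and 1 to 3 lower in OHC-like cells and 1 to 3 lower in nascent HCs, and gave 2 to 4 lower in OHC-like cells than in SCs failing to become HCs, and 0 to 1 higher and 0 to 1 lower than in nascent HCs. The log2 fold of Fgfr2 turned in OHC-like cells over WT_P30 OHCs (-0.78 without OHC-like cell 2, with leave-one-out values up to 3.36) and over SCs failing to become HCs (3.44 without cell 6, with values down to -11.07). Of the folds of single members under all alternatives, 467 moved by less than the larger SD of log2(CPM + 1) between cells and 53 by more. By the median over cells alone, 22 moved by more and 21 by less. Those 2 folds of Fgfr2, of the 35 past the 4-fold size, changed sign, as did 13 of the 27 folds under that size. Of the shares of cells 97 stayed within and 3 left their interval, and the causes were not tested. With 11 to 17 cells a group, every share of cells has a wide interval.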
